A study of Mus musculus with 13 samples.

Results

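The oligodendrocyte lineage genes described here are 9 mouse genes, Pdgfra, Cspg4, Sox10, Olig1, Olig2, Mbp, Mobp, Mag and Mog, taken by name from the rows of 3 deposited tables of gene expression. Of these 9 genes, 6 were in at least 1 table, out of 1592 genes in any table. The tables compare primary mouse astrocyte cultures given HLM006474 (3 samples), a RUNX1 inhibitor (3 samples) or SB431542 (3 samples) with cultures given vehicle (4 samples), each for 24 h. HLM006474 inhibits E2F transcription factors. The RUNX1 inhibitor, which the labels name by a Ro code, acts on the transcription factor RUNX1 and its partner CBFB. SB431542 inhibits signalling by the TGF-beta and activin type I receptors. All samples were wild type C57BL/6, grown in medium with serum from retinas and optic nerves of pups at postnatal day 1 to 3. Doses, and whether animals were pooled, are not stated in the labels.

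Oligodendrocytes are the glia that wrap axons in myelin in the central nervous system, including the optic nerve. Their precursors carry the PDGF receptor alpha and the proteoglycan NG2, divide in response to PDGF, and depend on the transcription factors OLIG1, OLIG2 and SOX10. When precursors mature they leave the cell cycle, and SOX10 drives genes for myelin proteins such as MBP and MAG. These cells were cultured as astrocytes, while the genes below are grouped under another lineage. Which cells of the cultures their RNA came from was not tested.

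Each table gives a mean normalised count over all 13 samples, a log2 fold change against vehicle with its standard error (shown as ±), and an adjusted p. Genes were deposited where the adjusted p was under 0.05 and the fold was about 1.5 or more. "Lower" and "higher" below mean in the table at these limits. Values per sample were not analysed here, so each value carries the authors' standard error in place of a replicate SD, and the depth of the libraries is unknown. Of the astrocyte markers, Fabp7 had a mean count of 18965, Kcnj10 one of 23892.5 and Slc6a11 one of 65.3 in the authors' deposited tables. Most markers of the labelled cell type, among them Gfap and Aqp4, were in no table and have no level here.

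The promoters of 3 members that were lower under HLM006474 are printed because they span the range of motif matches found, from the most (Mobp) to none (Cspg4). Each is the stretch of 250 bases before an annotated start in the RefSeq table (build GRCm38.p6), read along the gene's own strand. Capitals mark matches to the SOX motif ACAAAG, which here all read CTTTGT, its reverse complement.

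Mobp, chr9:120149492-120149741, + strand: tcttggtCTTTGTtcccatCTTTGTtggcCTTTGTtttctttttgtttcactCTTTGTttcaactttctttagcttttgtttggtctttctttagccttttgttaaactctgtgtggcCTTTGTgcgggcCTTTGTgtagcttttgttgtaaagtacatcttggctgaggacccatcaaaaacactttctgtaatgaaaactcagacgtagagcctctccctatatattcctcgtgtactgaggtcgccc

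Mag, chr7:30914923-30915172, - strand: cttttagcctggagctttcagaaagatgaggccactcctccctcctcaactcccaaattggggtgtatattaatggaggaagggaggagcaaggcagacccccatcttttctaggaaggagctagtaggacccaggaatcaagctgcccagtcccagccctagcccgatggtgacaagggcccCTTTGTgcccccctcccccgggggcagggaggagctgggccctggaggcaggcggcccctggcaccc

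Cspg4, chr9:56864854-56865103, + strand: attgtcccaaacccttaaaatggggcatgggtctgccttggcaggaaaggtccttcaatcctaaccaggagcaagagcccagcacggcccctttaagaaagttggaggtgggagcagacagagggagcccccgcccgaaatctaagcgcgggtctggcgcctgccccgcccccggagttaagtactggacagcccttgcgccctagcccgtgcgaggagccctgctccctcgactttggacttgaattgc

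The Mobp promoter held 6 matches to ACAAAG and the Mag promoter held 1, while Cspg4, Pdgfra, Olig2 and Mog held 0. ACAAAG was found on either strand in 18.7% of 32851 promoter windows of 250 bases before to 50 after a start. Mobp was the 1 window with as many as 6. That comparison was chosen after its count was seen, and 6 of the 9 members had an entry, with 8 starts in all. The E2F motifs TTTGGCGC and TTTCCCGC were in 0 of the 8 windows and in 0.514% and 1.07% of all windows. The RUNX motif TGTGGT was in 1 of the 8, at another start of Mag, and in 16.8% of all windows, and the E-box CAGCTG was in 0 of the 8 and in 16.3%. All motifs were searched on both strands, and a match is a description of letters, not of a bound site.

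**Figure D1:**
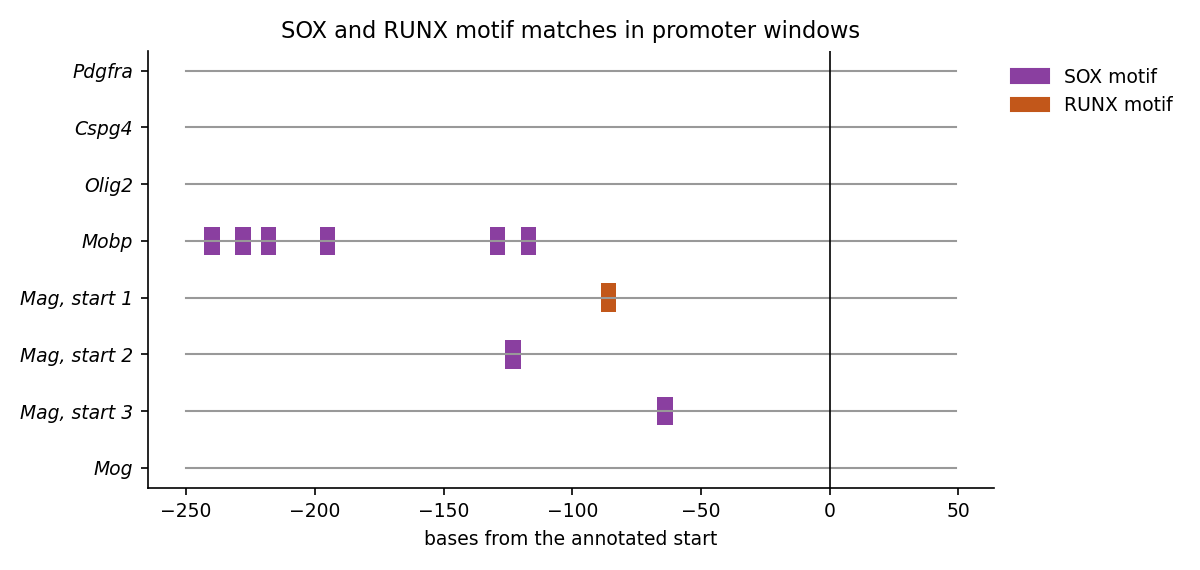
Positions of SOX (purple) and RUNX (orange) motif matches in the promoter windows of the 6 members with an entry, in bases from the annotated start (vertical line). Each grey line is 1 start. Mobp carries 6 SOX matches, and the match at Mag starts 2 and 3 is the same stretch seen from 2 starts.

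HLM006474 lowered 6 of the 9 lineage genes and raised none. Both precursor surface genes, Pdgfra and Cspg4, fell, as did Sox10 and the myelin genes Mbp, Mobp and Mag. Across all genes tested, 4.22% were lower and 1.42% were higher in the authors' deposited table for this compound. The 9 members were chosen with earlier results of these data known, so their count is a description. The median of the 6 was -1.07, against -0.84 over all 640 lower genes of the authors' deposited table. These medians are not a like comparison, because genes in that table had changes of at least about 2.49 standard errors. Mbp, Mobp and Mag, with errors of 0.35, 0.53 and 0.40, could therefore be listed only with large changes. Olig1, Olig2 and Mog were in no table and therefore have no value here, which does not show that they stayed level.

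Pdgfra encodes the receptor through which PDGF drives precursor division. It had a mean count of 930.0 and a log2 fold change of -0.84 ± 0.14 in the authors' deposited table (adjusted p = 1.74e-07). That corresponds to 56.0% of the vehicle level, with a 95% interval of 46.0 to 68.2%. Pdgfra lies at chr5:75152292-75198215 (+ strand, GRCm38). Of its 10024 exon bases, 456 overlap the antisense gene Gm42802 and 166 Gm42803. The labels do not state whether counting used strand, so reads there cannot be told apart.

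Cspg4, on chr9:56865033-56899870 (+ strand), encodes NG2, a proteoglycan of precursors that pericytes also carry. It had a mean count of 361.2 and stood at -1.01 ± 0.14 in the authors' deposited table for HLM006474 (adjusted p = 4.15e-12). This was 49.7% of vehicle (95% interval 41.4 to 59.7%) and the lowest adjusted p among the 6 members.

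Sox10 encodes the lineage transcription factor that acts in precursors and in mature cells, and also in Schwann cells and melanocytes. The gene lies at chr15:79154908-79165240 (- strand). With a mean count of 168.7, it stood at -1.10 ± 0.18 in the authors' deposited table (adjusted p = 5.98e-08), or 46.8% of vehicle (95% interval 36.4 to 60.0%). It was the only 1 of the 22 genes on the lineage factor list to be in any table. That is 4.55% of the list lower under HLM006474, near the 4.22% of all genes tested. The others on that list, such as Nkx2-2, Myrf and Tcf7l2, have no value here.

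Mbp encodes myelin basic protein, which compacts the myelin membrane. Its locus on chromosome 18 also makes golli transcripts, which other cells express, and a value per gene does not separate them. Mbp had a mean count of 769.7 and stood at -1.20 ± 0.35 in the authors' deposited table (adjusted p = 0.00375), 43.7% of vehicle with a 95% interval of 27.3 to 69.8%. Mobp, at chr9:120149707-120181484 (+ strand), encodes a small basic protein of compact myelin, and 79 of its exon bases overlap the same-strand gene Gm38642. It had the largest fall of the 6, -1.80 ± 0.53 at a mean count of 54.7 in the authors' deposited table (adjusted p = 0.00500), which is 28.7% of vehicle (95% interval 13.9 to 59.3%). Mag, at chr7:30899176-30914873 (- strand), encodes an adhesion protein of the myelin layer next to the axon. It stood at -1.05 ± 0.40 at a mean count of 88.4 in the authors' deposited table, and its adjusted p of 0.0392 was the highest of the 6.

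The 6 falls ranged from 28.7% to 56.0% of vehicle, and their 95% intervals overlapped. Smaller falls could not enter the table, and Olig1, Olig2 and Mog have no value. Every value between -1.12 and -0.75 on the log2 scale, or 46.0 to 59.3% of vehicle, lay inside all 6 of the 95% intervals. The order from Mobp to Pdgfra is therefore not resolved by these data. Per kb of exon, the mean count was 92.8 for Pdgfra, 90.9 for Mbp, 55.3 for Sox10, 30.3 for Cspg4, 21.7 for Mag and 7.99 for Mobp, with no error deposited for these levels. On the same scale the astrocyte genes ranged widely, with 15172 for Fabp7, 4419 for Kcnj10 and 12.9 for Slc6a11. In a bulk culture, fewer cells of a type and less RNA per cell cannot be told apart.

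**Figure D2:**
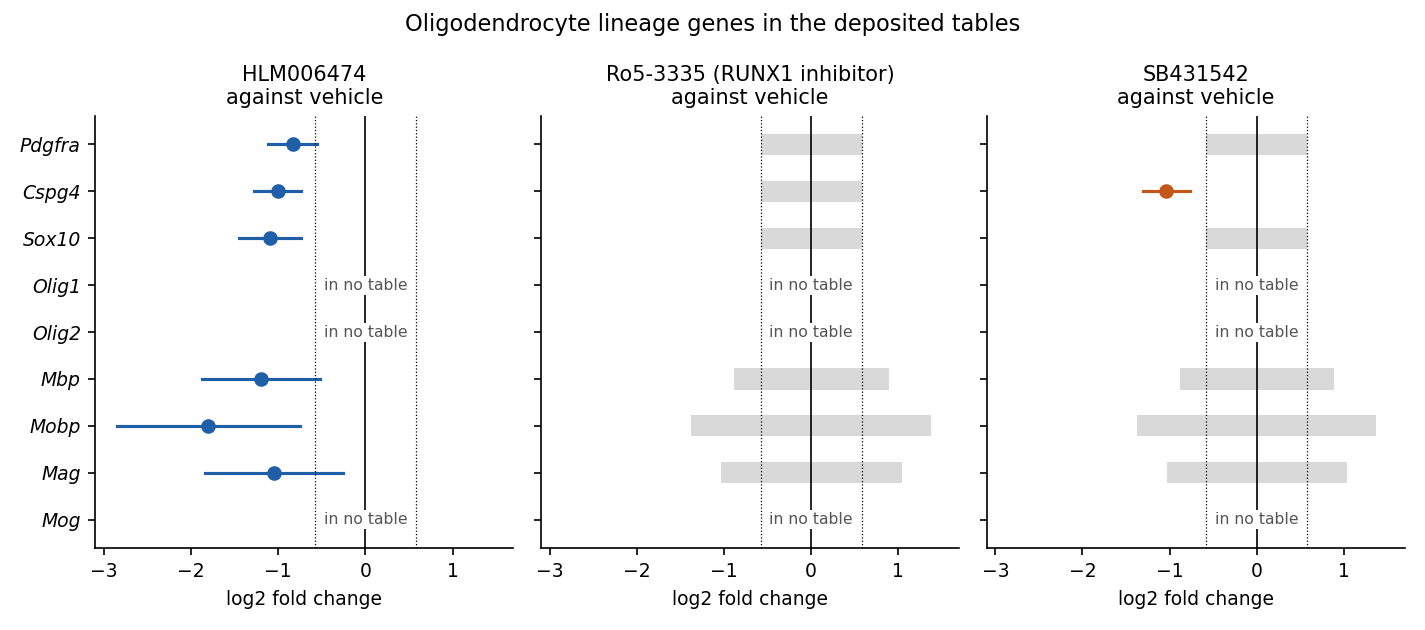
Log2 fold change against vehicle for the 9 lineage genes in each table (points, with 95% intervals as lines). Grey bars span the values at which a gene outside the table could lie, from its error under HLM006474, and dotted lines mark the fold limit of the tables. All 6 points for HLM006474 lie below 0, and Cspg4 is the 1 gene with a point in a second table.

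The members differed in precision, as a description without a test. Among genes of the HLM006474 table, Mbp, Mobp and Mag had wide errors for their counts, with Pdgfra next. The limits of that table favour genes with small errors, and genes outside it have no error here. For Mbp, all 53 genes of the HLM006474 table with a mean count within 1.25 times its own had a smaller standard error, 0.35 for Mbp against a median of 0.096 for those genes. For Mobp this held for 74 of 74 genes, and for Mag for 83 of 84. Among the others it was 40 of 47 for Pdgfra, 67 of 100 for Sox10 and 53 of 80 for Cspg4. Among the other precursor genes it was 59 of 66 for Cacng4, 45 of 84 for Sapcd2, 23 of 88 for Matn4 and 20 of 88 for Susd5. Of the other myelin and mature genes, Cldn11 had 87 of 94, Opalin 10 of 11 and Aspa 57 of 70. Gjc3 had 67 of 83, Bcas1 66 of 89 and Omg 8 of 85. Most of these myelin and mature genes thus had a higher share than most of the precursor genes, with Omg and Cacng4 as exceptions.

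Read as a spread between samples, these errors correspond to a coefficient of variation of 31.1% for Mbp, 46.6% for Mobp and 35.0% for Mag. The same estimate was 12.7% for Pdgfra, 14.8% for Sox10 and 11.1% for Cspg4, beside a median of 12.6% over 671 genes of that table with a mean count of at least 50. It assumes 1 spread shared by all groups and library scaling near 1, since no value per sample was used. Any pooling of spread across genes in the authors' fit is part of it, so it is not a spread measured on samples. With Mbp, Mobp and Mag left out, the 5 other myelin and mature genes with a mean count of at least 50 had a median of 20.0% (range 12.7 to 26.1%). The 4 precursor genes other than Pdgfra and Cspg4 had a median of 14.8% (range 13.7 to 17.4%), and the ranges overlap. A gene with a wide error enters the table only with a large change, so myelin genes with smaller changes are not seen here. Which samples were high or low cannot be read from these tables.

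**Figure D3:**
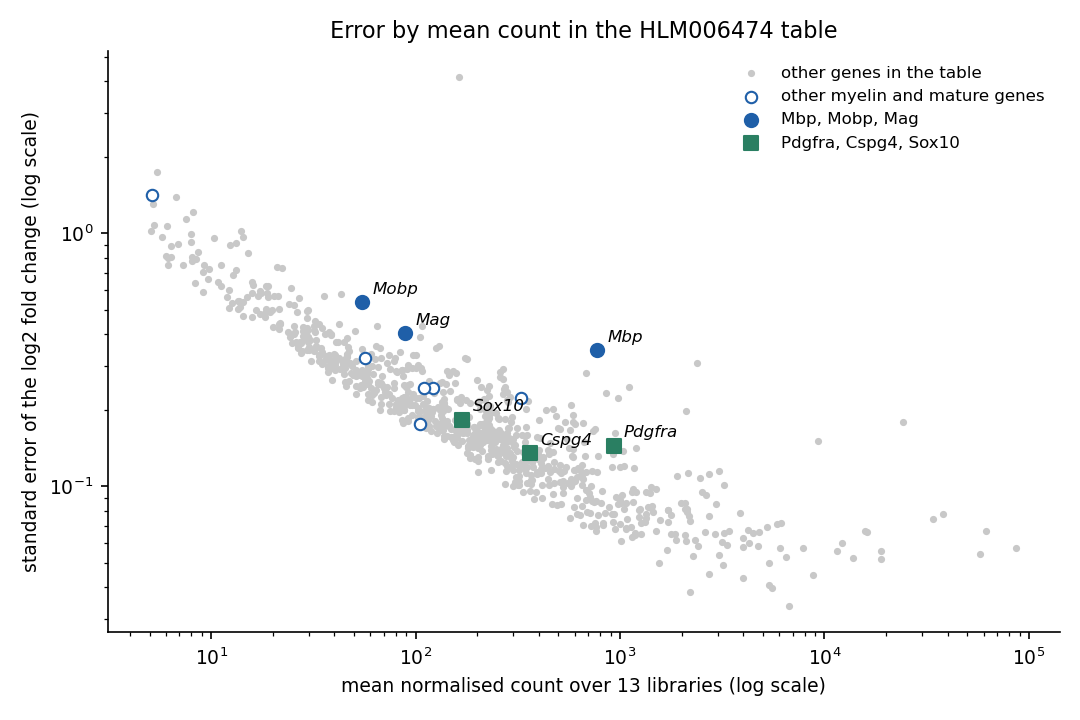
Standard error of the log2 fold change against mean normalised count, both on log scales, for all 856 rows of the HLM006474 table. Mbp, Mobp and Mag (blue) lie along the upper edge of the cloud, Cspg4 and Sox10 (green squares) lie within it, and Pdgfra (green square), with an error larger than that of 40 of 47 genes of similar count, lies towards its upper side.

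Further genes of the lineage moved in the same direction under HLM006474. The 4 lineage lists hold 103 genes, including the members, and 22 were lower and 0 higher in the authors' deposited table, where 4.22% of all genes tested were lower. The 22 had a median of -0.95. Without the 9 members, 16 of 94 were lower, with a median of -0.85. On the lineage factor list, 0 of the 19 genes other than members were lower. The lists were written with earlier results of these data known, so the counts are a description.

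Among 18 precursor genes 6 were lower, with a median of -0.85. Beside Pdgfra and Cspg4 they were Cacng4, a regulatory subunit of AMPA receptors, at -0.86 ± 0.18, Matn4, a matrix protein gene, at -0.83 ± 0.18, Susd5 at -0.79 ± 0.19 and Sapcd2 at -0.89 ± 0.22, in the authors' deposited table. Sapcd2 also has a role in dividing cells of other tissues. The ligand gene Pdgfb stood at -0.60 ± 0.092 in the authors' deposited table for HLM006474, and Pdgfa and Pdgfc were not in that table. Of 28 genes for signals that act on precursors 2 were lower, Shh at -0.80 ± 0.11 and Wnt7b at -0.63 ± 0.095 in the authors' deposited table.

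Among 38 myelin and mature genes 9 were lower, with a median of -1.14. Cldn11, the tight junction protein of myelin, stood at -1.14 ± 0.22 and Bcas1, a marker of early myelinating cells, at -1.19 ± 0.24, in the authors' deposited table. Gjc3, a connexin gene, was at -1.05 ± 0.24 and Omg, a myelin glycoprotein gene, at -0.74 ± 0.18 in the authors' deposited table. Opalin, which mature oligodendrocytes express, fell furthest of the genes on the lineage lists, at -4.89 ± 1.42 in the authors' deposited table, but its mean count was 5.15, so the size of its fall is poorly set. Cnp, Mal and Ermn, on the same list, were not in this table.

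Among 25 genes of myelin lipid synthesis 6 were lower. Ugt8a, which makes the myelin lipid galactosylceramide, stood at -1.35 ± 0.28 and Gal3st1, which turns it into sulfatide, at -0.81 ± 0.24, in the authors' deposited table. Fa2h, which hydroxylates the fatty acids of these lipids, was at -2.27 ± 0.89 in the authors' deposited table with a mean count of 6.38. The other 3 of the 6, Fdps, Lss and Nsdhl, are enzymes of sterol synthesis that all cells use. Their values were -0.79 ± 0.065 for Fdps, the lowest adjusted p of the 6 at 7.48e-32, -0.78 ± 0.16 for Lss and -0.63 ± 0.069 for Nsdhl in the authors' deposited table.

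**Figure D4:**
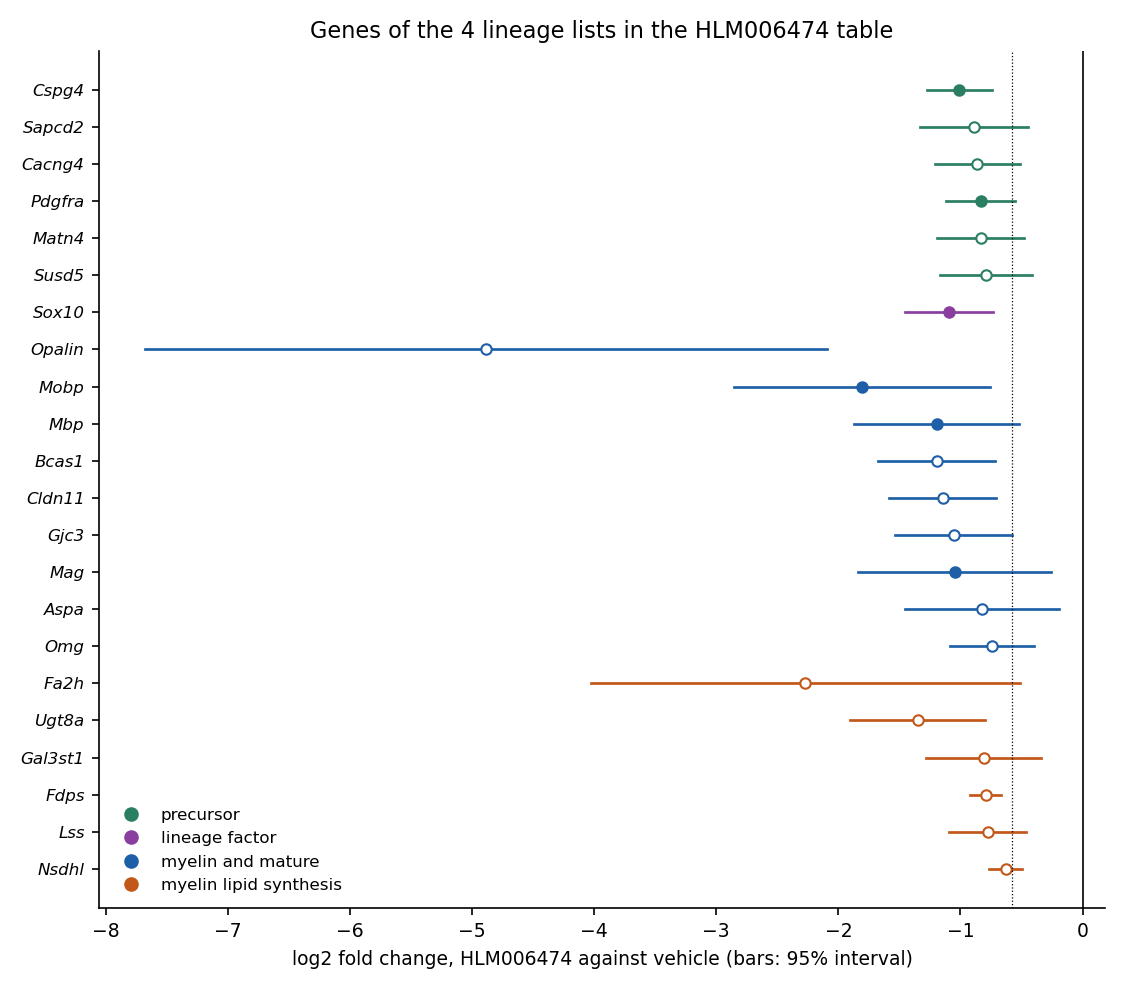
Log2 fold change under HLM006474 for the 22 genes of the 4 lineage lists in that table, with 95% intervals, coloured by role. Filled points are 6 of the 9 named lineage genes, and the dotted line is the fold limit. All 22 lie below 0, and Opalin and Fa2h have the widest intervals.

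Markers of other cells were set beside these falls. Of 20 proliferation genes 16 were lower under HLM006474, with a median of -0.95 in the authors' deposited table, and 14 were lower under the RUNX1 inhibitor, with a median of -0.69. None of the 9 lineage genes was in the RUNX1 inhibitor table. Changes of up to 0.89 log2 units for Mbp, 1.04 for Mag and 1.38 for Mobp could have gone unlisted there. The part of cell division in the falls of the lineage genes was not tested. Of 15 astrocyte markers 2 were lower under HLM006474, Fabp7 at -0.64 ± 0.055 and Slc6a11 at -0.64 ± 0.25 in the authors' deposited table.

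Of 15 Schwann cell markers, which share Sox10 and several myelin genes with oligodendrocytes, 2 were lower and 1 higher under HLM006474. Prx, a gene of Schwann cell myelin, stood at -0.86 ± 0.15 and Cldn19 at -0.61 ± 0.14 in the authors' deposited table. The authors' deposited table gives 2.01 ± 0.19 for Egr2, a Schwann cell factor that is also an immediate early gene. Of 9 melanocyte markers 0 were in any table. Of 15 fibroblast and pericyte markers, cells that can carry Pdgfra or Cspg4, Rgs5 was lower and Des higher. Of 14 microglia and macrophage markers 3 were lower and 1 higher, with Tmem119 at -1.08 ± 0.070 in the authors' deposited table. Of 13 neuron markers 1 was lower, and of 9 endothelial markers 0 were in the table. The part of these cells in the falls of the lineage genes was not tested.

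SB431542 lowered Cspg4 alone among the 9 genes, in a table with 2.64% of tested genes lower and 2.29% higher. Cspg4 stood at -1.04 ± 0.14 in the authors' deposited table for SB431542 (adjusted p = 8.70e-13), or 48.8% of vehicle (95% interval 40.6 to 58.6%). Its fold change under HLM006474 minus that under SB431542 was 0.027 ± 0.19 (z test on the authors' values, adjusted p = 0.991 over 161 genes in both tables). The 95% interval of that difference, -0.35 to 0.40, leaves room for unequal effects of moderate size. Both comparisons use the same vehicle samples.

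Of the 103 genes of the 4 lineage lists, 5 were lower and 1 higher under SB431542, beside 2.64% and 2.29% of all genes tested. In the precursor list, Vcan, a matrix proteoglycan gene, and Xylt1, which starts glycosaminoglycan chains, were also lower under SB431542. The authors' deposited table gives -0.74 ± 0.087 for Vcan and -0.70 ± 0.073 for Xylt1. Of 38 myelin and mature genes, Tspan2 and Cd9, both tetraspanin genes, were lower, with Cd9 at -0.67 ± 0.045 in the authors' deposited table. Evi2a of that list was higher, at 1.09 ± 0.11 in the authors' deposited table. The PDGF ligand gene Pdgfc was lower, at -0.69 ± 0.083 in the authors' deposited table. Of 28 genes for signals that act on precursors, 2 were lower, Shh at -0.59 ± 0.11 and Jag1 at -0.70 ± 0.091, and Bmp2 was higher, at 1.65 ± 0.28, in the authors' deposited table. Beside the fall of Cspg4, 3 of 15 fibroblast and pericyte markers were lower under SB431542, Col1a1, Col1a2 and Notch3, and Anpep was higher. Of 14 microglia and macrophage markers 5 were lower, among them Tmem119 at -4.00 ± 0.11 and Cx3cr1 at -2.21 ± 0.081 in the authors' deposited table. The 2 higher were Lyz2 at 0.65 ± 0.18 and Cd68 at 0.72 ± 0.075 in the authors' deposited table. Of 15 Schwann cell markers 2 were lower, Gldn at -1.44 ± 0.20 and Cdh19 at -0.75 ± 0.22 in the authors' deposited table, and Egr2 was higher. Of 15 astrocyte markers 1 was lower, of 9 endothelial markers 1 was lower and of 13 neuron markers 1 was higher. Their part in the fall of Cspg4 was not tested.

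Under the RUNX1 inhibitor 0 of the 9 genes were lower or higher, where 2.32% of tested genes were lower and 0.605% higher. The number at an unadjusted p under 0.05 was not analysed here, because the table holds genes past its limits alone. Of the 103 genes of the 4 lists, 3 were lower and 0 higher, a share of 2.91% near the 2.32% over all genes tested. Susd5 stood at -0.63 ± 0.19, Rlbp1 at -0.58 ± 0.18 and Anln at -0.61 ± 0.063 in the authors' deposited table for the RUNX1 inhibitor. Anln, an actin-binding scaffold of myelin, also acts in cell division, and Rlbp1 is also a gene of Müller glia in the retina.

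The absence of a member from a table bounds its change only as far as its error allows. With the error seen under HLM006474, Pdgfra, Cspg4 and Sox10 would be in the RUNX1 inhibitor table at any change beyond 0.58 on the log2 scale. For Mbp that limit was 0.89, for Mag 1.04 and for Mobp 1.38, so a fall of Mobp to 38.4% of vehicle could have gone unlisted. For SB431542 the limits were 0.58 for Pdgfra and Sox10, 0.89 for Mbp, 1.03 for Mag and 1.37 for Mobp. Whether the genes absent from these 2 tables fell more under HLM006474 than under the other compounds is not decided here. They have no value there, so a 1-sided z test (Benjamini-Hochberg adjustment) set each fall against its limit. For Cspg4 against the RUNX1 inhibitor the adjusted p was 0.114, or 0.0138 allowing for the shared vehicle samples. Sox10 had an adjusted p of 0.167 or 0.0304 there, and 0.176 or 0.0322 against SB431542. These members entered through their falls under HLM006474, so this test cannot decide the question.

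By a rule on tables, count and size, the genes most like the 5 members found under HLM006474 alone were Gm48128, Rasgrp1, Kcnn4, Fignl1 and Tent5b, out of 307 candidates. They lay within 0.018 log2 units of the members' median of -1.10 in the authors' deposited table. Likeness here rests on 1 fold change and says nothing of shared control.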

How the data were processed

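RNA from 13 samples was sequenced, and 3 tables of the authors' comparisons were used. STAR 2.7, CASAVA 1.8 and DESeq2 1.30.1 are named, with build GRCm38, per the submitters' processing notes. The sources used here name no read counter and no annotation. The authors' deposited tables give, per the file headers, a mean normalised count (a signal level over all libraries), a log2 fold change, its standard error, a Wald score, a p-value and an adjusted p-value; a row number was not used. Nothing states that replicates are separate cultures, so p-values may measure technical spread alone.

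The number of genes tested, from the ratio of p to adjusted p, was 15169 for HLM006474 and SB431542 and 13561 for the RUNX1 inhibitor (ranks whole within 0.02 for 79.6% to 83.9% of the values checked). The table for the RUNX1 inhibitor has no gene with a mean count under 21.6. Intervals of 95% are 1.96 standard errors. The coefficient of variation came from the squared error divided by the sum of 1/3 and 1/4, less the counting part. Differences used a z test with the root of summed squares as error and Benjamini-Hochberg adjustment. The spread without members was added after seeing the data. Over genes in 2 tables the standard errors had median ratios of 0.997 to 1.00. Steps were tested on simulated data. Python 3.11.15, scipy 1.17.1 and pandas 2.3.3 were used. Exons are from GENCODE M21 (GRCm38). Members and lists were chosen with earlier results of these data known. Named genes are all members and, per list, at most the 8 with the largest Wald scores. Some genes are not reported here, and list counts leave them out.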

Additional observations from a re-analysis of the deposited data

How the results depend on the processing

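No paired analysis was possible because the tables hold no values per sample, and leaving out replicates and other count models could not be run for the same reason. The 6 members lower under HLM006474 became 3 with Bonferroni adjustment, where Pdgfra, Cspg4 and Sox10 passed and 1.85% of all genes tested were lower. They became 0 when the fold itself had to exceed 1.5 (1-sided z test with Benjamini-Hochberg adjustment), although 5 of the 6 had an unadjusted p under 0.05 and 0.389% of all genes were then lower. Of the 22 genes of the 4 lists lower under HLM006474, 11 had a fold of at least 2, 10 passed Bonferroni and 0 passed the test against a fold of 1.5, with 12 at an unadjusted p under 0.05. Of the 3 lower under the RUNX1 inhibitor, 0 had a fold of at least 2, 1 passed Bonferroni and 0 passed the test against 1.5, with 0 at an unadjusted p under 0.05. Of the 5 lower under SB431542, 1 had a fold of at least 2, 4 passed Bonferroni and 1 passed the test against 1.5, which was Cspg4. At a fold of at least 2, 1.38% of all genes tested were lower under HLM006474, 0.494% under the RUNX1 inhibitor and 1.06% under SB431542. In the same order, these shares were 1.85%, 1.1% and 1.44% with Bonferroni adjustment. They were 0.389%, 0.118% and 0.62% with the test against 1.5. An adjusted p under 0.01 ended the call of Mag, and a fold of at least 2 that of Pdgfra. A mean count of at least 50 and the shorter promoter window changed no member count. The difference of Cspg4 between HLM006474 and SB431542 stayed within its error when that error allowed for the shared vehicle samples (adjusted p = 0.965, z test). Counts of 54.7 for Mobp and 88.4 for Mag limit what these data resolve.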
